A study of Mus musculus with 24 samples.

Results

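Livers of Ogg1-/- and WT mice were compared for 10 genes that encode the PGC-1 coactivators (Ppargc1a, Ppargc1b and Pprc1), the PPAR nuclear receptors (Ppara, Ppard and Pparg), the estrogen-related receptors (Esrra and Esrrg) and the nuclear respiratory factors (Nrf1 and Gabpa). The genes were taken by name: every probe set whose platform annotation carries 1 symbol equal to one of these names was used, which gave 11 probe sets, 2 of them for Ppargc1a, out of 19939 genes with such a probe set. The brighter of the Ppargc1a probe sets is called probe set 1 here. All 11 probe sets were tested, since no filter on low values was applied.

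PGC-1 coactivators have no DNA-binding domain and act by docking on transcription factors, among them PPARs, estrogen-related receptors, NRF-1 and the GABP complex. In liver, PGC-1α rises with fasting, when it drives fatty acid oxidation and gluconeogenesis, and PGC-1β also works with SREBP-1 on lipid synthesis and export. PPARα is the fatty acid sensor that switches on oxidation and ketogenesis, PPARγ promotes lipid storage in fatty liver, and ERRα, NRF-1 and GABP act on genes of the respiratory chain and of mitochondrial upkeep.

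The livers came from male C57BL6 mice in 4 groups of 6, with 1 array per liver: chow-fed Ogg1-/- and chow-fed WT mice, and Ogg1-/- and WT mice fed a HFD. Ogg1-/- mice lack OGG1, the glycosylase that removes oxidised guanine from DNA, in all tissues from conception, and WT mice carry no engineered allele. According to the labels, mice of all groups were 10 weeks old at the start, lived in single cages and ate the diet freely for 10 weeks; the methods give an older age at the start. The Ogg1-/- line had been backcrossed to C57BL/6J, and the sources used here do not state at what hour the livers were collected.

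The Ogg1 probe set ranged from 5.85 to 6.0 (log2 value) in chow-fed Ogg1-/- livers and from 6.26 to 6.55 in chow-fed WT livers. On the HFD it ranged from 5.70 to 6.03 in Ogg1-/- livers and from 6.34 to 6.57 in WT livers, so the genotypes were separate in each diet. The sources used here do not state whether its probes fall in the targeted part. Replicate 1 of the chow-fed Ogg1-/- livers stood apart from its group on the first principal component of the differences between livers of one chow group (called the axis here), with a score of 80.9. This liver alone made up 59.21% of the squared deviations of the chow-fed livers along the axis, and calls that change without it are given both ways. Hepatocyte markers averaged log2 values of 13.17 to 13.61 per liver over all groups, while lists of adipocyte, muscle and pancreas markers stayed between 5.60 and 6.25. The description labels of the 6 chow-fed WT livers and of 1 HFD-fed WT liver end in an extra letter of unstated meaning. On chow, whatever that letter marks cannot be told apart from genotype. In WT livers it nearly follows diet, so the diet comparison in WT livers and the interaction share this limit.

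On the HFD, 4 of the 11 probe sets, from 4 genes, passed an adjusted p under 0.05 and all 4 were lower in Ogg1-/- livers: Ppargc1a probe set 1, Gabpa, Pparg and Ppara. Of all probe sets, 19.8% passed in this comparison and 9.55% passed with a lower value in Ogg1-/- livers. The first 3 of these also fell by at least 1.5-fold, as did 4.8% of all probe sets. Those shares include probe sets without a symbol. In a fit of 1 probe set per gene, 5233 of 19939 genes passed, 2593 of them lower in Ogg1-/- livers, and 4 of the 10 regulators passed. Without chow-fed Ogg1-/- replicate 1, whose spread enters the shared fit, Ppard and Esrra passed as well with higher values in Ogg1-/- livers, which made 6 of the 11, against 25.9% of all probe sets. On chow, 0 of the 11 passed, against 0.478% of all probe sets, and a separate test of each probe set, as in the methods, passed 0 as well. With limma, 6 had an unadjusted p under 0.05. The share of all probe sets under that unadjusted threshold was not counted, so no excess can be read from the 6. The median log2 difference of the 11 probe sets was -0.19 on the HFD and -0.04 on chow, against 0.02 over all probe sets in each diet. Tests are by limma over 35556 probe sets, with Benjamini-Hochberg adjustment over all of them, and a difference is the Ogg1-/- mean minus the WT mean on the log2 scale. In whole liver, fewer cells of a type and less RNA per cell cannot be told apart.

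**Figure D1:**
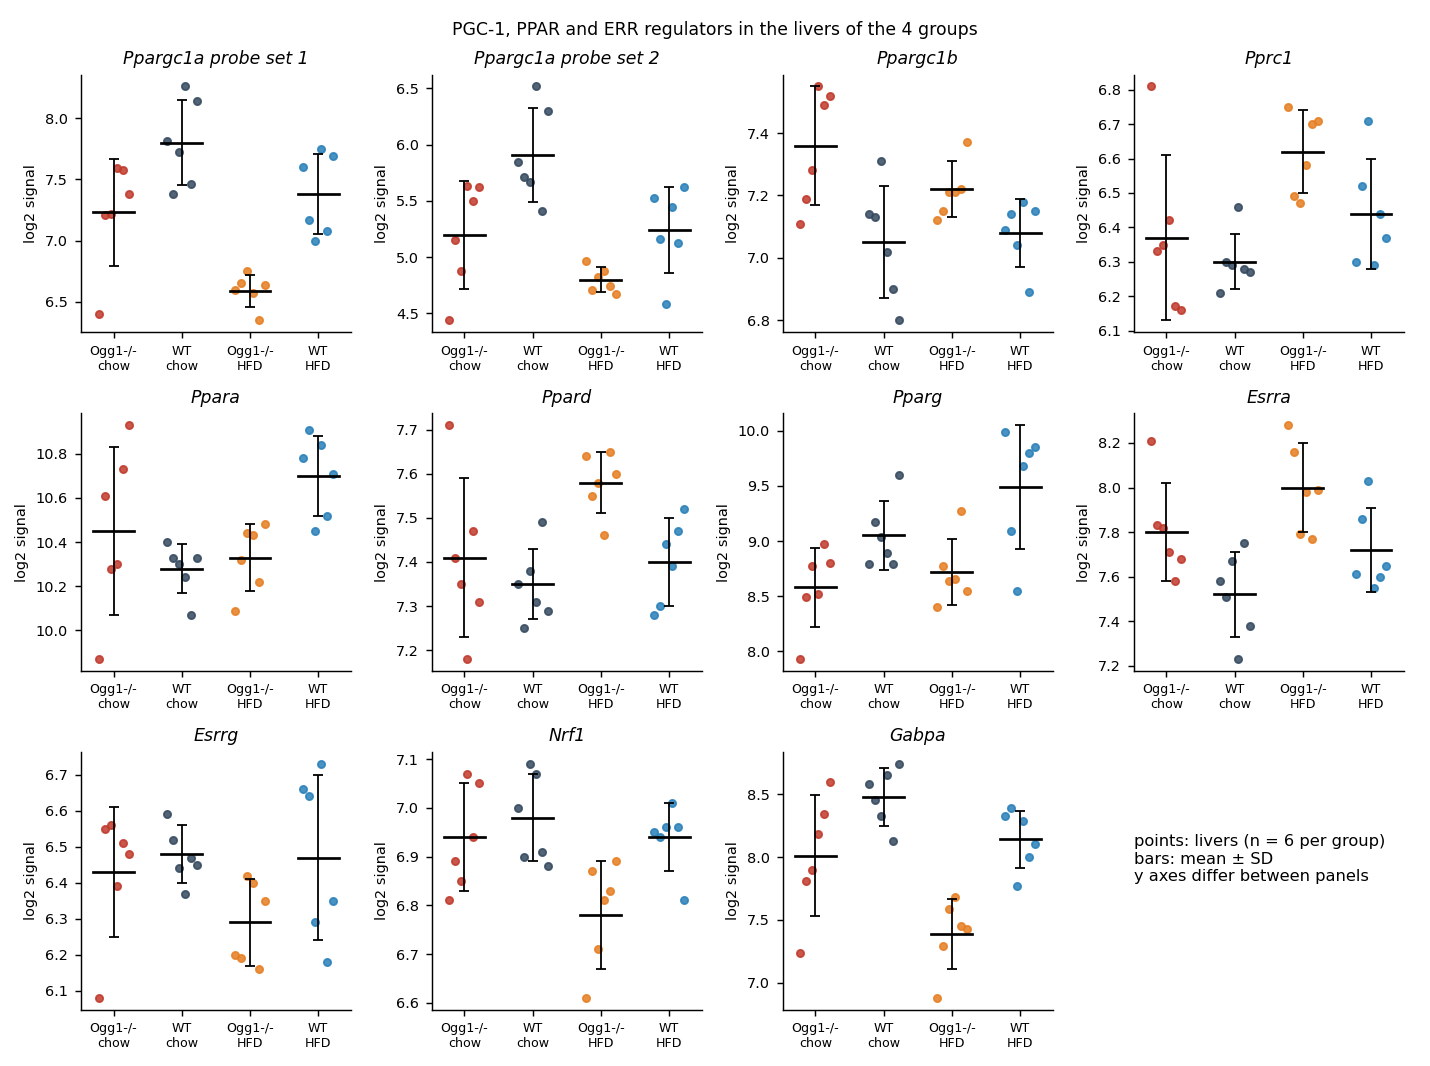
Log2 signal (y axes, which differ between panels) of each liver (points, 6 per group) for the 11 probe sets, with group means and SD (black bars), in chow-fed Ogg1-/-, chow-fed WT, HFD-fed Ogg1-/- and HFD-fed WT livers. On the HFD the Ogg1-/- livers lie wholly below the WT livers for Ppargc1a probe set 1 and Gabpa, and the lowest chow-fed Ogg1-/- point of Ppargc1a probe set 1, at 6.40, is replicate 1.

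For the 4 genes that passed on the HFD, the 100 bases before the start site show what regulatory letters each promoter carries. The sequences are from RefSeq on GRCm38.p6, 5′ to 3′ on the strand of the gene, with a match to a known element in capitals: a half-site of the cAMP response element for Ppargc1a, which is a CREB target in fasting, the core of an ETS site for Gabpa, which itself encodes an ETS factor, an NRF-1 site for Ppara, and a nuclear receptor half-site for Pparg at the first of its 3 start sites.
Ppargc1a, chr5:51567726-51567825, minus strand: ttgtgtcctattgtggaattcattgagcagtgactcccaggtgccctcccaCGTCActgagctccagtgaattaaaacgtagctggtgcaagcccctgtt
Gabpa, chr16:84835024-84835123, plus strand: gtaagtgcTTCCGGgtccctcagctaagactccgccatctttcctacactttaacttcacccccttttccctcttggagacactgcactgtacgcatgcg
Ppara, chr15:85735676-85735775, plus strand: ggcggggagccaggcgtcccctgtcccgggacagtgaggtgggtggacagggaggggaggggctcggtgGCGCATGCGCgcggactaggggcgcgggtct
Pparg, chr6:115361044-115361143, plus strand: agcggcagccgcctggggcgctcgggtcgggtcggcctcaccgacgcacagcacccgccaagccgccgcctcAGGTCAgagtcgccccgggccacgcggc

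The letters were searched on both strands from 250 bases before to 50 bases after each start, in 32851 RefSeq promoters. The CRE half-site TGACG is on the opposite strand of the Ppargc1a sequence and so appears there as its reverse complement. It was in 20.8% of all promoters, and also at Ppara (first base at -222) and at Ppard (-4), which did not pass. The ETS core CCGGAA, likewise on the opposite strand at Gabpa, was in 14.9%, the half-site AGGTCA in 16.3% and the palindromic NRF-1 site in 4.6%. Ppara was the only 1 of the 9 genes with a promoter entry that held the NRF-1 site. At Pparg 2 of 3 starts held the half-site AGGTCA, which was also at Pprc1 (-113), a gene that did not pass. The longer ERR element TCAAGGTCA, which contains the half-site, was in 0.423% of all promoters and at 0 of the 15 start sites of these genes. Ppargc1b was not matched to a promoter entry. The element in capitals was picked for each gene, and whether any of them acts in these livers was not tested.

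Ppargc1a, which encodes PGC-1α, fell in Ogg1-/- livers on the HFD. Its probe set 1 had a lowest, median and highest log2 value of 6.35, 6.62 and 6.75 in HFD-fed Ogg1-/- livers, against 7.0, 7.38 and 7.75 in HFD-fed WT livers. The 6 Ogg1-/- livers lay below every WT liver and within a narrower range. Such a separation, with Ogg1-/- livers lower, was found for 2 of the 11 probe sets and for 6.04% of all probe sets. The difference was -0.79 (SE 0.18, 95% interval -1.17 to -0.41, limma adjusted p = 0.0056), a 1.73-fold fall.

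On chow the same probe set had 6.40, 7.30 and 7.59 in Ogg1-/- livers and 7.38, 7.76 and 8.26 in WT livers. Only part of the Ogg1-/- livers lay under the WT range, and the difference of -0.57 did not pass (95% interval -0.94 to -0.19, limma adjusted p = 0.149). Probe set 2 of Ppargc1a gave -0.71 on chow (limma adjusted p = 0.113) and -0.45 on the HFD (limma adjusted p = 0.132), so it did not pass in either diet, although the 95% intervals of -1.13 to -0.29 and -0.87 to -0.02 do not include 0. Its values were 4.67, 4.78 and 4.97 in HFD-fed Ogg1-/- livers and 4.58, 5.30 and 5.62 in HFD-fed WT livers, where replicate 3 was the low one. Without that WT liver the HFD difference was -0.58 (limma adjusted p = 0.0397). Ordered by mean, both probe sets ran from HFD-fed Ogg1-/- livers at the bottom to chow-fed WT livers at the top, with chow-fed Ogg1-/- and HFD-fed WT livers between them and overlapping.

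Ppargc1b, which encodes PGC-1β, passed in neither diet. It averaged 7.36 ± 0.19 in chow-fed Ogg1-/- livers and 7.05 ± 0.18 in chow-fed WT livers (SD, n = 6 each), and 7.22 ± 0.09 in HFD-fed Ogg1-/- livers and 7.08 ± 0.11 in HFD-fed WT livers (SD, n = 6 each). The differences were 0.31 on chow (95% interval 0.13 to 0.49, limma adjusted p = 0.109) and 0.13 on the HFD (95% interval -0.05 to 0.32, limma adjusted p = 0.319). The HFD interval of this 1 probe set reached down to -0.05 in this fit, which sets no bound on a fall under other processing or by another method. Pprc1, the coactivator related to PGC-1α that responds to serum and growth signals, differed by 0.07 on chow (limma adjusted p = 0.744) and by 0.18 on the HFD (limma adjusted p = 0.2), within a range of 6.16 to 6.81 over all livers.

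Gabpa, which encodes the DNA-binding subunit of GABP, fell on the HFD as well. It had a lowest, median and highest log2 value of 6.88, 7.44 and 7.68 in HFD-fed Ogg1-/- livers, against 7.77, 8.19 and 8.39 in HFD-fed WT livers. The groups did not overlap. The difference was -0.76 (SE 0.18, 95% interval -1.12 to -0.39, limma adjusted p = 0.00578), a 1.69-fold fall. On chow it had 7.24, 8.04 and 8.60 in Ogg1-/- livers and 8.13, 8.52 and 8.74 in WT livers. These overlapped, and the difference of -0.47 did not pass (95% interval -0.83 to -0.10, limma adjusted p = 0.183). Nrf1, which encodes the other respiratory factor, differed by only -0.04 on chow (limma adjusted p = 0.793) and by -0.15 on the HFD (95% interval -0.28 to -0.02, limma adjusted p = 0.0948), within a range of 6.61 to 7.09 over all livers.

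Pparg had a lowest, median and highest log2 value of 8.40, 8.65 and 9.27 in HFD-fed Ogg1-/- livers, against 8.55, 9.74 and 9.99 in HFD-fed WT livers. Most WT livers were higher than every Ogg1-/- liver, and WT replicates 2 and 3 lay within the Ogg1-/- range. The difference was -0.78 (SE 0.22, 95% interval -1.22 to -0.33, limma adjusted p = 0.014), a 1.71-fold fall, and on chow it was -0.47 (95% interval -0.91 to -0.02, limma adjusted p = 0.258). Pparg is within 10 Mb of Ogg1 on chromosome 6, with 29 annotated protein-coding genes between them. DNA kept from the targeted line around the Ogg1 allele cannot be told apart from loss of OGG1 for this gene. Nrf1 is on the same chromosome outside that window, and the other 8 genes are on other chromosomes.

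Ppara passed by a smaller margin. It had a lowest, median and highest log2 value of 10.09, 10.38 and 10.48 in HFD-fed Ogg1-/- livers, against 10.45, 10.75 and 10.91 in HFD-fed WT livers. All but 1 of the 6 Ogg1-/- livers lay below every WT liver. The difference was -0.37 (SE 0.13, 95% interval -0.64 to -0.10, limma adjusted p = 0.0456), a 1.29-fold fall, and it no longer passed when any of 13 single livers was left out (adjusted p up to 0.113). On chow the difference was 0.18, with an interval from -0.09 to 0.44 (limma adjusted p = 0.49). Ppard, the widely expressed PPARδ gene, went the other way on the HFD without passing: it had 7.46, 7.59 and 7.65 in HFD-fed Ogg1-/- livers and 7.28, 7.41 and 7.52 in HFD-fed WT livers. The difference was 0.18 (95% interval 0.03 to 0.33, limma adjusted p = 0.0811), and Ppard passed after centring each array on its median (limma adjusted p = 0.0434), with array weights (0.017), with only the HFD groups in the fit (0.0493), in a separate test of each probe set, as in the methods (0.023), and without chow-fed Ogg1-/- replicate 1 (0.0266). It did not pass after centring on reference genes, after quantile normalization, with dim probe sets left out or with the replicate number as a block. Nor did it pass with limma's trended robust variance option, with the axis score as a covariate or with 1 probe set per gene. Leaving out any other single liver did not make Ppard pass either.

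The estrogen-related receptor genes did not pass in either diet in the fit of all livers. Esrra, which encodes the ERRα partner of PGC-1α, averaged 7.80 ± 0.22 in chow-fed Ogg1-/- livers and 7.52 ± 0.19 in chow-fed WT livers (SD, n = 6 each), and 8.0 ± 0.20 in HFD-fed Ogg1-/- livers and 7.72 ± 0.19 in HFD-fed WT livers (SD, n = 6 each). The difference was 0.28 in each diet, with limma adjusted p = 0.2 on chow and 0.0868 on the HFD. Both intervals lay above 0, from 0.05 to 0.52 on chow and from 0.05 to 0.51 on the HFD. On the HFD Esrra passed without chow-fed Ogg1-/- replicate 1 (0.28, limma adjusted p = 0.0453) and without HFD-fed WT replicate 3 (0.34, limma adjusted p = 0.0344). It did not pass there without any other single liver, or in any setting that kept all livers. Esrrg, an orphan receptor gene of the same family, differed by -0.05 on chow (limma adjusted p = 0.841) and by -0.19 on the HFD (limma adjusted p = 0.177), within a range of 6.08 to 6.73 over all livers.

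**Figure D2:**
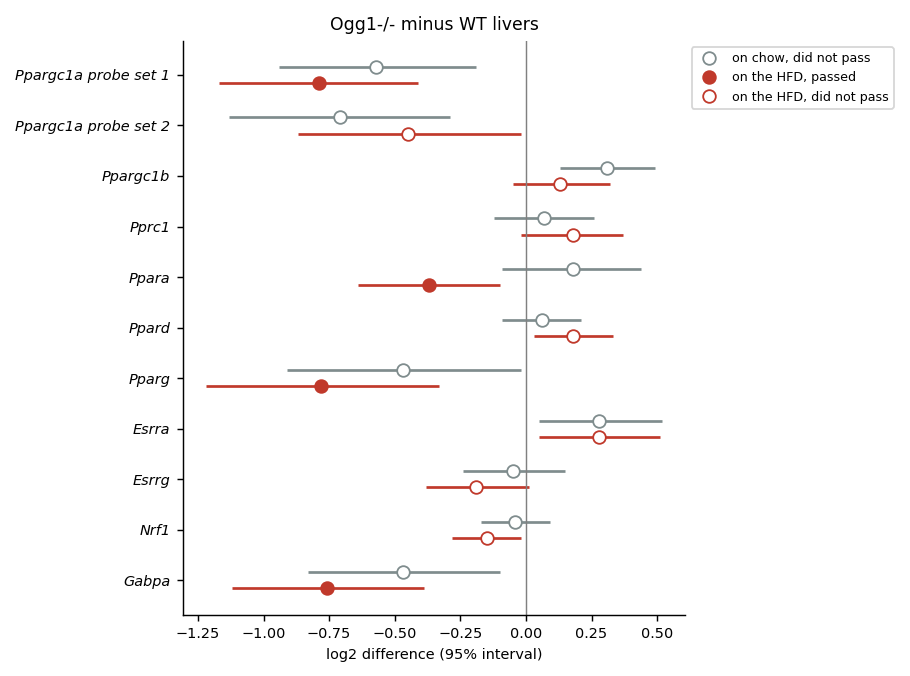
Log2 difference, Ogg1-/- minus WT livers (x axis), with its 95% interval (lines) for the 11 probe sets (rows) on chow (grey) and on the HFD (red), where filled points passed an adjusted p under 0.05 in limma. Filled points stand at -0.79 for Ppargc1a probe set 1, -0.78 for Pparg, -0.76 for Gabpa and -0.37 for Ppara, and every chow point is open.

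Some markers of other liver cells also differed between the HFD groups, where 19.8% of all probe sets passed. Of 8 sinusoidal endothelial markers, 7 fell in Ogg1-/- livers on the HFD and 0 on chow, and the mean log2 value of that list ranged from 8.0 to 8.28 in HFD-fed Ogg1-/- livers and from 8.36 to 8.82 in HFD-fed WT livers. Of 8 Kupffer cell markers 2 rose and 2 fell, and of 8 stellate cell markers 2 fell. The part of these cells in the results for Ppargc1a, Gabpa, Pparg and Ppara was not tested. The axis score also moved with genotype on the HFD: it was 32 ± 13.3 in Ogg1-/- livers and -7.03 ± 11.1 in WT livers (SD, n = 6 each), without overlap. With this score as a covariate the HFD differences were -0.41 for Ppargc1a probe set 1 (limma adjusted p = 0.152), -0.28 for Gabpa (adjusted p = 0.0607), -0.44 for Pparg (adjusted p = 0.295) and -0.07 for Ppara (adjusted p = 0.747). All 4 calls were then lost, and 2.71% of all probe sets passed. Since the scores of the HFD groups do not overlap, the axis and the genotype cannot be told apart there.

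The same livers were then compared between diets within each genotype, so these values share samples with those above. In Ogg1-/- livers, 2 of the 11 probe sets passed, both lower on the HFD by over 1.5-fold, against 9.53% of all probe sets that passed and 2.45% that passed and fell by that much. Ppargc1a probe set 1 had 6.35, 6.62 and 6.75 in HFD-fed Ogg1-/- livers and 6.40, 7.30 and 7.59 in chow-fed Ogg1-/- livers, a difference of -0.64 (SE 0.18, limma adjusted p = 0.0304). Gabpa differed by -0.62 (SE 0.18, limma adjusted p = 0.0284). Each call depended on single livers: it was lost without any of 8 livers for Ppargc1a (adjusted p up to 0.0895) and without any of 5 for Gabpa (adjusted p up to 0.0894). In both genes, replicate 1 of the chow-fed livers was the low one and lay within the HFD range. Without it the differences were -0.80 and -0.78, and 6 of the 11 probe sets passed: Ppargc1a probe set 2 (-0.56), Gabpa, Ppargc1a probe set 1 and Nrf1 (-0.18) fell, and Pprc1 (0.33) and Ppard (0.23) rose, while 25.4% of all probe sets passed in that fit. In a fit of the 12 Ogg1-/- livers alone, 0 of the 11 passed, against 2.71% of all probe sets. Ppargc1a probe set 2 differed by -0.40 in the fit of all livers (95% interval -0.82 to 0.02, limma adjusted p = 0.221).

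In WT livers 0 of the 11 passed between the diets, against 0.925% of all probe sets. With limma 4 had an unadjusted p under 0.05, a threshold whose share over all probe sets was not counted: both probe sets of Ppargc1a, Ppara and Pparg. Ppargc1a differed by -0.41 by probe set 1 (95% interval -0.79 to -0.04, limma adjusted p = 0.322) and by -0.67 by probe set 2 (95% interval -1.09 to -0.25, limma adjusted p = 0.135), and Pparg by 0.45 (limma adjusted p = 0.369). Ppara was the only 1 of the 11 whose diet groups did not overlap. It had a lowest, median and highest log2 value of 10.45, 10.75 and 10.91 in HFD-fed WT livers, against 10.07, 10.31 and 10.40 in chow-fed WT livers. All 6 HFD-fed livers were higher than every chow-fed liver, as for 1.18% of all probe sets, and the difference of 0.42 (SE 0.13, 95% interval 0.16 to 0.69) had a limma adjusted p = 0.135. It passed in a fit of the WT livers alone (limma adjusted p = 0.0378) and without chow-fed Ogg1-/- replicate 1 (limma adjusted p = 0.0357). The extra letter of the labels nearly follows diet in the WT livers, so what it marks can hardly be told apart from diet here. In Ogg1-/- livers the HFD difference of Ppara was -0.12 (95% interval -0.39 to 0.15, limma adjusted p = 0.607).

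A dependence of the genotype difference on diet was tested as an interaction, for which 0 of the 11 probe sets passed, against 0.00281% of all probe sets. Ppara was the 1 of the 11 with an unadjusted p under 0.05 with limma, and the share of all probe sets under that threshold was not counted. Its genotype difference was lower on the HFD than on chow by -0.54 (95% interval -0.92 to -0.17, limma adjusted p = 0.55). Without chow-fed Ogg1-/- replicate 1, which had the lowest Ppara value of all livers at 9.87, the interaction was -0.66 (limma adjusted p = 0.0339), and 1.52% of all probe sets passed. For Ppargc1a the interaction was -0.22 by probe set 1 and 0.26 by probe set 2, with intervals from -0.76 to 0.31 and from -0.33 to 0.86, so the HFD call and the missing chow call do not show that the diets differ.

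**Figure D3:**
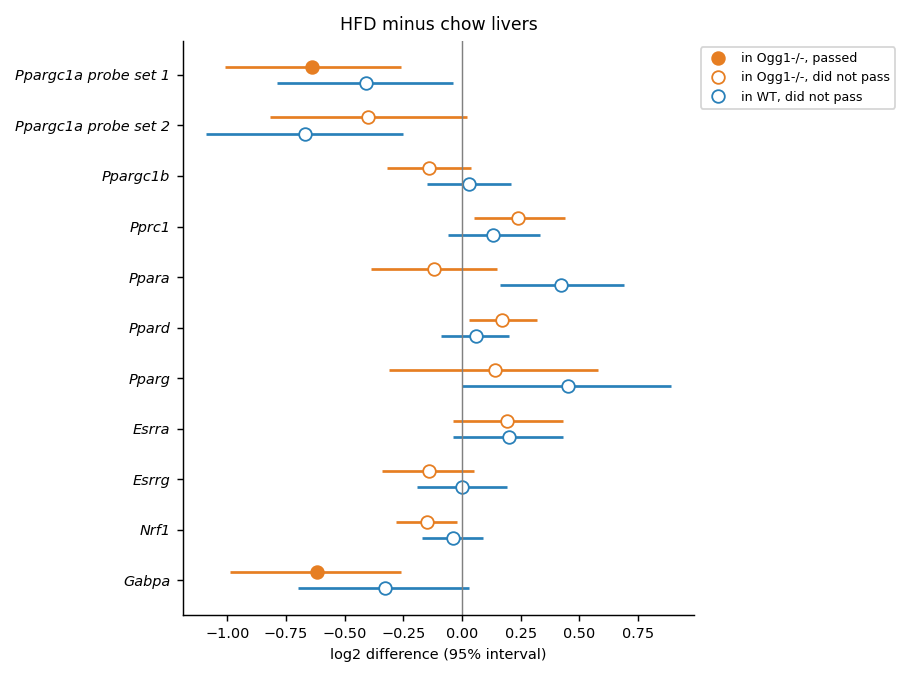
Log2 difference, HFD minus chow livers (x axis), with its 95% interval (lines) for the 11 probe sets (rows) in Ogg1-/- (orange) and WT (blue) livers, where filled points passed an adjusted p under 0.05 in limma. Ppargc1a probe set 1 (-0.64) and Gabpa (-0.62) are filled in Ogg1-/- livers, and Ppara stands at -0.12 in Ogg1-/- and at 0.42 in WT livers.

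Genes that work with the regulators or are known to respond to them were followed as 9 lists, with 175 of 189 listed names on the array. On the HFD, 19.8% of all probe sets passed, and 5233 of 19939 genes in a fit of 1 probe set per gene. Each HFD count of a list below stands against these shares. The lists hold genes that the study had already reported as changed from these same arrays. Among them on the HFD are Prkaa2, Etfdh, Acadm, Acsl5, Dld, Fh1, Idh3a, Sucla2, Sdha and Pdha1. On chow they include the clock genes Usp2 and Bhlhe41. Counts of the lists with such genes are therefore no independent test against the shares. Of 23 cofactors and partners 12 passed, 3 higher and 9 lower in Ogg1-/- livers. The largest differences were those of Prkaa2, the AMPK catalytic subunit that phosphorylates PGC-1α, at 8.45 ± 0.29 in Ogg1-/- and 9.36 ± 0.29 in WT livers (SD, n = 6 each; difference -0.91, limma adjusted p = 0.00439), and of Kat2b, an acetyltransferase gene (-0.88). Gabpb2, a partner subunit of the Gabpa product, also fell (-0.58, limma adjusted p = 0.00593). On chow 0 of 23 passed, against 0.478% of all probe sets. Of 16 other transcription factor genes that PGC-1 proteins work with, 6 rose and 4 fell on the HFD: Srebf1, the lipogenic SREBP-1 gene, rose by 0.92, and Nr3c1, the glucocorticoid receptor gene, and Rora, the RORα gene, had differences of -0.91 and -0.90.

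Target lists moved in both directions on the HFD, where 19.8% of all probe sets passed. Of 26 PPARα targets 4 rose and 8 fell, with a median of -0.21 over the list against 0.02 over all probe sets, and 2 rose and 8 fell after centring on reference genes. Among those that fell were Cyp4a12a, a fatty acid hydroxylase gene (-1.04, limma adjusted p = 0.0161), Etfdh, which passes electrons from fatty acid oxidation to the respiratory chain (-1.03), and Pdk4, the kinase that restrains pyruvate oxidation (-0.94). Of 14 PPARγ targets 2 rose and 1 fell (1 and 1 after centring on reference genes): G0s2, an inhibitor of lipolysis (0.80), and Pnpla2, the lipase that it inhibits (0.32), rose, and Acsl5, an acyl-CoA synthetase gene, fell (-0.95). Of 29 oxidative targets of PGC-1 and ERR 8 rose and 10 fell, but 4 and 12 after quantile normalization, 5 and 10 after centring on reference genes and 8 and 7 after centring on array medians, the largest being the TCA cycle and complex I genes Dld (-0.75), Fh1 (-0.71) and Ndufs1 (-0.59).

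Of 25 NRF-1 and GABP targets 10 rose and 2 fell, with a median of 0.21, while Gabpa itself fell. After centring on reference genes, 5 rose and 2 fell. The 2 that fell were Tfb2m, a mitochondrial transcription factor gene (-0.71), and the import receptor gene Tomm70a (-0.67), and another import receptor gene, Tomm20, rose at 9.41 ± 0.10 in Ogg1-/- against 8.91 ± 0.19 in WT livers (SD, n = 6 each; difference 0.50, limma adjusted p = 0.00173). Tfam, which encodes the packaging factor of mitochondrial DNA and was picked after its values were seen, also rose (0.39, limma adjusted p = 0.0105). Of 11 gluconeogenic and heme targets of PGC-1α 2 rose and 0 fell on the HFD, Slc37a4, the glucose 6-phosphate transporter gene (0.59), and Pcx, the pyruvate carboxylase gene (0.24). Of 14 lipogenic and VLDL targets of PGC-1β and SREBP-1, 1 rose and 2 fell (0 and 2 after quantile normalization or centring on reference genes), namely Apoc3 (0.15), Gpam, the first acyltransferase of triglyceride synthesis (-1.08), and Mttp, the lipid loader of VLDL (-0.88).

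On chow, 0 genes of these lists passed outside the gluconeogenic and clock lists. G6pc, the glucose 6-phosphatase gene, fell (-0.96, limma adjusted p = 0.00457) and Slc37a4 rose (0.45, limma adjusted p = 0.0431). The gene with the smallest p in each other list did not pass (limma adjusted p from 0.0554 to 0.221): it was Rxra (0.31), which encodes the receptor that pairs with PPARs, Nr2f2 (0.47), a nuclear receptor gene, Ehhadh (-0.41), a peroxisomal oxidation gene, Pnpla2 (0.30), Mfn2 (-0.22), a mitochondrial fusion gene, Tomm20 (0.26) and Acly (-0.59), which makes cytosolic acetyl-CoA. Ppargc1a is known to cycle over the day, and the clock list held many calls in each diet. On chow, where 0.478% of all probe sets passed, 10 of 17 clock genes rose and 1 fell. On the HFD, where 19.8% passed, 11 rose and 2 fell. The clock genes were led by Ciart (2.68 on chow and 2.53 on the HFD), Usp2 (2.28 and 1.92), Bhlhe41 on chow (2.18) and Per1 on the HFD (1.43). Their part in the results for the 10 regulators was not tested. Between the diets, 6 of 14 PPARγ targets rose on the HFD in Ogg1-/- livers, where 9.53% of all probe sets passed, and 1 of 14 in WT livers, where 0.925% did, and the difference between these counts was not tested. With the axis score as a covariate, 2.71% of all probe sets passed on the HFD. The genes passing in that fit were 2 of 23 cofactors, 3 of 16 other factors, 1 of 26 PPARα targets and 0 of 14 PPARγ targets. Those of the other lists were 1 of 29 oxidative targets, 2 of 25 NRF-1 and GABP targets, 1 of 11 gluconeogenic and heme targets, 1 of 14 lipogenic and VLDL targets, and 9 of 17 clock genes.

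**Figure D4:**
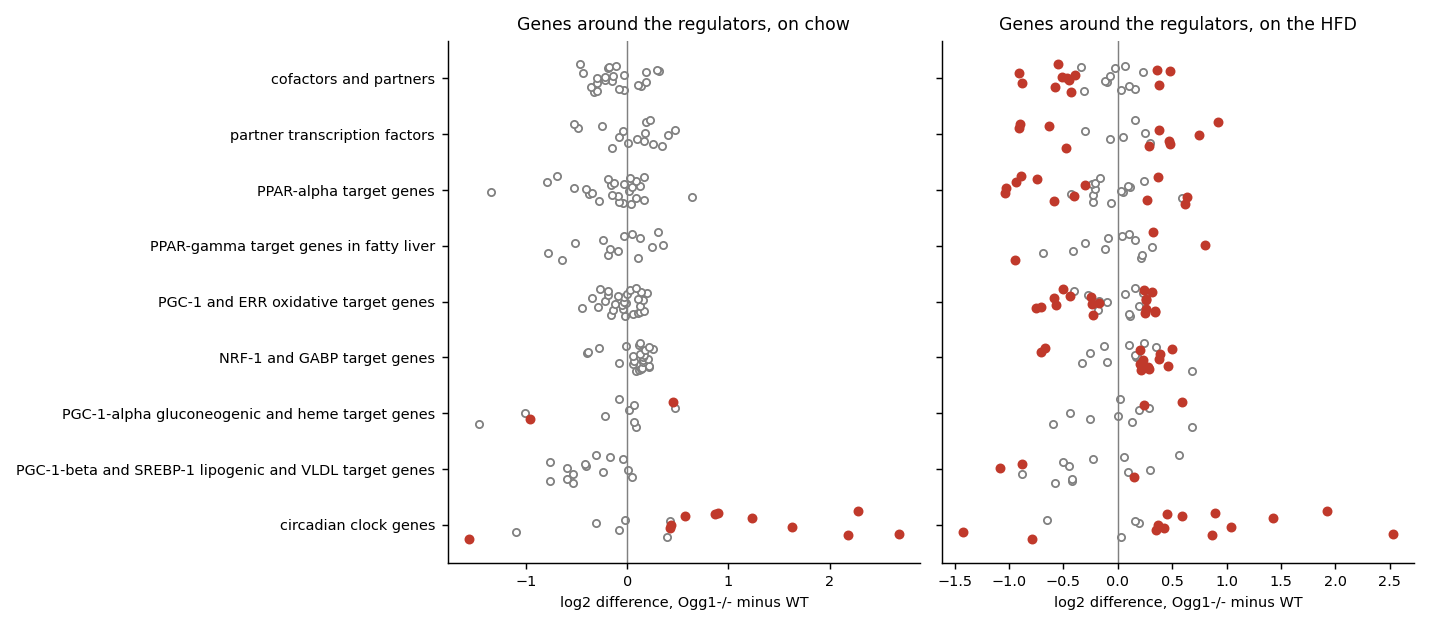
Log2 difference, Ogg1-/- minus WT livers (x axes, which differ), of each gene in the 9 lists (rows, 1 point per gene, spread vertically for view only) on chow (left) and on the HFD (right), where red points passed an adjusted p under 0.05 in limma. On the HFD red points lie on both sides of 0 in most lists, with 10 of 12 to the right among NRF-1 and GABP targets, and on chow nearly all red points are clock genes.

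Within groups, some pairs of regulators varied together from liver to liver. Pairs of other probe sets were not counted, so this cannot be called particular to the regulators. The axis held 40.21% of the variation within the chow groups. Residuals from the group means were correlated over the 24 livers for all 55 pairs of probe sets, with a permutation test within groups, and 25 pairs had an adjusted p under 0.05 by Pearson's r, 13 with a positive and 12 with a negative r. Of these, 13 also had an adjusted p under 0.05 by Spearman's rho. Without chow-fed Ogg1-/- replicate 1 the r of all 25 kept its sign and was nearer 0, with a median size of 0.49 against 0.66 with it. The 2 probe sets of Ppargc1a rose and fell together (r = 0.88, Spearman's rho = 0.85, permutation p = 1e-05, the smallest that 100000 permutations give, adjusted p = 0.00055), with r = 0.82 without the 2 livers farthest from the median. Ppara went with Gabpa (r = 0.84, rho = 0.70, permutation p = 5e-05 and 0.0017, adjusted p = 0.0011 and 0.0134), with r = 0.69 without the 2 farthest livers. Ppargc1a probe set 1 went with Gabpa as well (r = 0.67, rho = 0.59, permutation p = 0.00171 and 0.00515, adjusted p = 0.0094 and 0.0257), with r = 0.52 without the 2 farthest livers.

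Esrra ran against them. Its r with Gabpa was -0.77 (rho = -0.72, permutation p = 6e-05 and 0.0005, adjusted p = 0.0011 and 0.00836), and -0.65 without the 2 farthest livers. With Pparg its r was -0.74 (rho = -0.68, permutation p = 0.0003 and 0.00071, adjusted p = 0.00293 and 0.00836), and -0.59 without the 2 farthest livers. With Ppargc1a probe set 1 its r was -0.69 (rho = -0.63, permutation p = 0.00102 and 0.00219, adjusted p = 0.00623 and 0.0151), and -0.52 without the 2 farthest livers. Chow-fed Ogg1-/- replicate 1 was low in Ppargc1a, Ppara and Gabpa and high in Esrra, and without it the r values were 0.75 for Ppara and Gabpa, 0.49 for Ppargc1a probe set 1 and Gabpa, and -0.69 for Esrra and Gabpa.

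**Figure D5:**
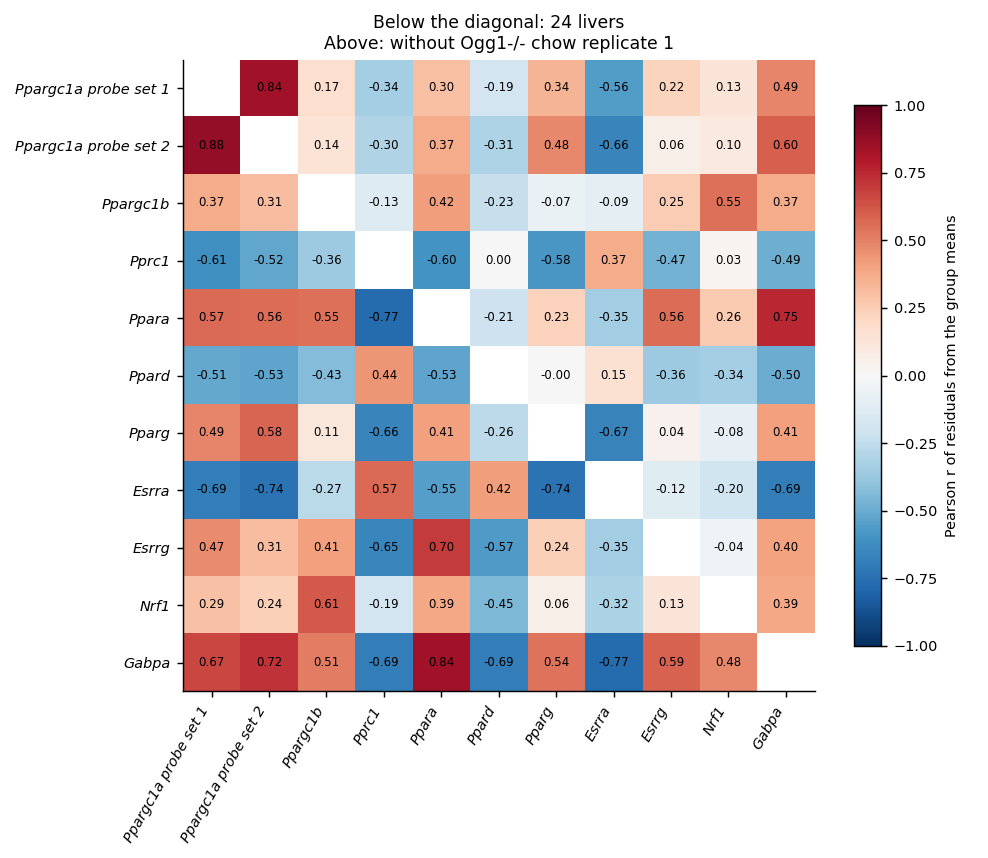
Pearson's r between residuals from the group means for each pair of the 11 probe sets, over 24 livers below the diagonal and without chow-fed Ogg1-/- replicate 1 above it (red positive, blue negative). Ppara and Gabpa stand at 0.84 below and 0.75 above the diagonal, and Esrra and Gabpa at -0.77 and -0.69.

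Over all 24 livers and 21778 single-symbol probe sets, the gene whose level was most like that of Ppara was Cpt1a, the gate of fatty acids into mitochondria (r = 0.817), which fell on the HFD by 0.40 in Ogg1-/- livers (limma adjusted p = 0.0242). The nearest to Gabpa were N4bp2l2 (r = 0.987), Matr3 and Atf2 (0.985 each), and the nearest to Ppargc1a probe set 1 were Ppip5k2 (0.949), Smg6 (0.946) and Pnisr (0.939). Pparg was most like Ermp1 (0.892) and Plekha1 (0.889), Esrra like BC003965 (0.915), Pprc1 like Agpat1 (0.895), Ppard like Rpia and Dusp12 (0.869 each), and Nrf1 like Phlpp1 (0.822). Esrrg (Cdk7, 0.8) and Ppargc1b (Wdfy1, 0.777) had the loosest nearest genes. These r values include the differences between groups and were picked as the highest, so they carry no test.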

How the data were processed

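Liver RNA was hybridised to the Mouse Gene ST GeneChip, 1 array per liver. The deposited table holds a log2 signal for each probe set and array, which the submitters' processing notes credit to RMA, and values ran from 1.81 to 14.81, with array medians of 5.90 to 5.97. RMA shrinks differences near background. Pairs of arrays correlated at 0.952 to 0.993, and none held the same values (0 pairs).

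All 35556 probe sets were fitted in 1 limma 3.58.1 model of the 4 groups (R 4.3.3), with no filter, block or covariate. A probe set passed at an adjusted p under 0.05. Symbols came from the platform table, in which 21789 probe sets have 1 symbol, 1621 several and 12146 none. The members and gene lists were chosen with earlier results of these data known. All members are named, and from each list, per genotype comparison, up to 3 genes with the largest difference among those that passed, or the gene with the smallest p; Tfam is named outside this rule. Alas1 and Foxa2 are each in 2 lists. Replicate numbers were checked as pairs: over 36 pairs of livers, residuals correlated from -0.273 to 0.431 (median -0.034), so they were not treated as paired. Precision is set by the number of arrays. The sources used here do not say whether livers shared a litter or a processing day.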

Additional observations from a re-analysis of the deposited data

Results flagged for a closer look

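Of 44 sets of 6 livers (11 probe sets in 4 groups), 4 held a liver whose gap to its nearest neighbour was large for the range of its group by Dixon's test, and chance alone gives about 1 in 20. In chow-fed Ogg1-/- livers, replicate 1 was lowest for Ppargc1a probe set 1 at a log2 value of 6.40, with the next at 7.21, and for Esrrg at 6.08, with the next at 6.39. In chow-fed WT livers, replicate 4 was highest for Pprc1 at 6.46, with the next at 6.30. In HFD-fed WT livers, replicate 6 was lowest for Nrf1 at 6.81, with the next at 6.94.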

How the results depend on the processing

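Results were recomputed under 35 settings, 24 of which left out 1 liver, and 0 called values changed sign. The HFD differences of Ppargc1a probe set 1, Gabpa and Pparg passed without any single liver, and Pparg missed in the methods' t-test (adjusted p = 0.0555). Ppara missed after median centring (adjusted p = 0.0544). With the axis score as a covariate 0 of the 11 probe sets passed or reached 1.5-fold on the HFD, against 4 and 3 in the main fit, while 2.71% of all probe sets passed; 6 passed with array weights and 6 with only the groups compared, against 26.4% and 23.7% of all probe sets, Ppard and Ppargc1a probe set 2 being gained in each. Between the diets in Ogg1-/- livers, where 2 passed and 2 reached 1.5-fold, 5 passed with array weights, 0 passed or reached 1.5-fold with only the groups compared, in the methods' t-test or with the axis covariate, and 1 reached 1.5-fold after quantile normalization. The shares of all probe sets passing there were 23.0% with array weights, 2.71% with only the groups compared, 1.62% in the methods' t-test and 4.76% with the axis covariate. In WT livers Ppara passed between the diets with array weights, with only the groups compared and with the axis covariate (1 probe set each, against 2.36%, 1.32% and 1.97% of all probe sets). The cause was not tested. Leaving out single livers, 0 to 1 passed on chow (0 to 1 at 1.5-fold), 3 to 6 on the HFD (3 to 3 at 1.5-fold), 0 to 1 in the interaction (0 to 1 at 1.5-fold), and 0 to 1 in WT (0 to 0 at 1.5-fold) and 0 to 6 in Ogg1-/- livers (0 to 2 at 1.5-fold) between the diets. The chow call was Ppargc1a probe set 2 (-0.79, adjusted p = 0.044) without Ogg1-/- replicate 6. When the replicate number was added as a block, 4 probe sets passed on the HFD and 0 on chow, and it changed no call among the 11 probe sets; of the gluconeogenic and heme list 1 gene passed in each diet, against 2 without it. On the HFD, 12 NRF-1 and GABP targets passed, against 7 after centring on reference genes and 20 in the methods' t-test. On chow 11 clock genes passed, against 6 in the methods' t-test, which also passed 0 of the gluconeogenic list. That t-test passed 22.8% of all probe sets on the HFD and 0.0928% on chow, and centring on reference genes passed 5904 of 35556 on the HFD. Adjusted p are from limma unless named otherwise.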
